A study of Mus musculus with 9 samples.

Results

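The respiratory chain of the mouse midbrain was examined through 99 of the 51912 genes listed in an RNA-seq study of *Nkx2.9*. The genes were chosen by name among the protein-coding genes of GRCm38. They are the subunits of complexes I to V whose symbols begin with Ndufa, Ndufb, Ndufc, Ndufs, Ndufv, Sdha to Sdhd, Uqcr, Cyc1, Cox4 to Cox8 or Atp5, and the protein-coding genes of the mitochondrial chromosome. A further 15 genes with matching names encode assembly factors and were left out. The nuclear genome encodes 86 of the 99 genes, namely 38 of complex I, 4 of complex II, 9 of complex III, 18 of complex IV and 17 of complex V. The mitochondrial genome encodes the other 13, namely 7 of complex I, 1 of complex III, 3 of complex IV and 2 of complex V.

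RNA of micro-dissected midbrains of C57Bl/6 mouse embryos at E14.5 was sequenced in 9 libraries, each made from 2 pooled midbrains, with 3 libraries for each genotype. Embryos were homozygous for a LacZ allele (*Nkx2.9*LacZ/LacZ), heterozygous for it (*Nkx2.9*LacZ/+) or wild type (*Nkx2.9*+/+), and in the LacZ allele the reporter takes the place of the first exon in every cell of the embryo. The title of the series speaks of cortical material, whereas the sample labels and the methods speak of midbrain. Libraries are numbered here by their column, with 1 to 3 labelled LacZ/LacZ, 4 to 6 LacZ/+ and 7 to 9 +/+. Values are normalized counts, which are read counts divided by a scale factor for each library.

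The targeted gene was not lower in the libraries labelled LacZ/LacZ. *Nkx2-9* had 4, 6 and 3 reads in libraries 1 to 3, 0, 7 and 4 in libraries 4 to 6, and 0, 2 and 2 in libraries 7 to 9. Each library labelled LacZ/LacZ thus lay above each labelled +/+. These few reads were counted over the whole gene, whereas the LacZ allele replaces only the first exon, so they cannot check the labels. The libraries are called by their labels throughout, and every direction between genotypes rests on those labels alone. The labels of LacZ/LacZ and +/+ could not be checked and remain in doubt. If they were exchanged, the sign of every LacZ/LacZ over +/+ difference given below would turn, and each comparison with LacZ/+ would become the other with its sign turned. Between 1692963 and 5942192 reads lay on genes in each library. Libraries 7 and 4 were the shallowest, with 1692963 and 2584074 reads, and a single read was worth 2.59 normalized counts in library 7 and 1.63 in library 4, against 0.702 to 0.915 in the other 7. All 8 neuronal markers examined were well above the minimum used for testing, and their summed normalized count ranged from 26403 to 33093. The 6 markers of midbrain dopaminergic neurons summed to 957 in library 4 and to 628 to 764 elsewhere, with *Th* at 187 in library 4 and 51.2 to 100.5 elsewhere. The 4 choroid plexus markers summed to 69.8 in library 7 and to 16.3 to 32.4 elsewhere.

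The respiratory chain sits in the inner mitochondrial membrane. Complex I takes electrons from NADH and complex II, which is also the succinate dehydrogenase of the citric acid cycle, takes them from succinate. Complex III passes them to cytochrome c and complex IV passes them to oxygen, and the proton gradient that builds up drives ATP synthesis by complex V. Complexes I, III, IV and V are mosaics of subunits from both genomes, whereas all subunits of complex II are nuclear. Several subunits of complex IV exist as alternative isoforms, a common form and others known from heart, skeletal muscle, lung or testis. Neurons depend strongly on this pathway.

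All 13 mitochondrial-encoded genes were listed at 0 in all 9 libraries. They are *mt-Nd1*, *mt-Nd2*, *mt-Nd3*, *mt-Nd4*, *mt-Nd4l*, *mt-Nd5* and *mt-Nd6*, which encode core subunits of complex I, *mt-Cytb* of complex III, *mt-Co1*, *mt-Co2* and *mt-Co3* of complex IV, and *mt-Atp6* and *mt-Atp8* of complex V. No other gene of the mitochondrial chromosome had a value either: all 37 listed genes of that chromosome, including 22 for transfer RNAs and 2 for ribosomal RNAs, stood at 0. Among the 51596 listed genes of the nuclear chromosomes, 31539 had a value above 0, or 61.1%. A further 86 listed genes lie on unplaced scaffolds, and all of these were listed at 0 as well. The comparison of nuclear with mitochondrial-encoded subunits can therefore not be made with these values, and no fold change is given for the 13 genes. Why they are listed at 0 was not tested.

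Copies of mitochondrial genes in the nuclear genome did have reads. A stretch of chromosome 1 on the minus strand, chr1:24611535-24616197 in GRCm38, holds 7 unprocessed pseudogenes, and each is near-identical to a mitochondrial-encoded member. The identity over the shorter sequence was 100% for *Gm28439* and *mt-Nd4*, *Gm10222* and *mt-Nd4l*, *Gm28437* and *mt-Co3*, *Gm10925* and *mt-Atp6*, and *Gm28661* and *mt-Co2*. *Gm28438* differed from *mt-Nd3* at 1 of 345 bases, and *Gm29216* differed from *mt-Co1* at 6 of 492. The 30 bases that hold these differences are shown because the copies and the mitochondrial genes can be told apart by no other base of the shared stretch. Each is written in the direction of the gene, and capitals mark the bases that differ.
mt-Nd3 (chrM:9459-9488, plus strand): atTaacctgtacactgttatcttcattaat
Gm28438 (chr1:24613090-24613119, minus strand): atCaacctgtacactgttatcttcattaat
mt-Co1 (chrM:6381-6410, plus strand): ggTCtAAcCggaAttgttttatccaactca
Gm29216 (chr1:24616168-24616197, minus strand): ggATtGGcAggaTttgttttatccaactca
All differences of both pairs lie at the 5′ end of the copy. Over the 9 libraries *Gm29216* had 5327 reads, *Gm10925* 3436, *Gm28661* 2974, *Gm28437* 2583, *Gm28439* 686, *Gm28438* 432 and *Gm10222* 138. The summed normalized count of the 7 copies was 2156, 1313 and 1354 in the LacZ/LacZ libraries, 1261, 1481 and 1288 in the LacZ/+ libraries, and 1466, 1533 and 2106 in the +/+ libraries. It was highest in library 1 and library 9, which carry opposite genotypes, and the values of the 3 genotypes overlapped. Whether these reads came from the copies or from mitochondrial RNA cannot be told apart by sequence for 5 of the 7 pairs.

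The promoters of nuclear respiratory genes are known to carry sites for a small set of factors, among them nuclear respiratory factor 1 (NRF1), the ETS-family factor GABP (also named NRF2), the estrogen-related receptor alpha (ESRRA) and YY1. Core motifs of these 4 factors were searched on both strands of RefSeq promoter windows of GRCm38.p6, which run from 250 bases before to 50 bases after an annotated start. Windows were found for 69 of the 86 nuclear-encoded members, 74 windows in all. The NRF1 core (GCGCA, any base, then GCGC) was present in 17 of the 69 members, and 24.3% of their windows held it, against 9.47% of the windows of protein-coding genes tested and 4.60% of all windows. The YY1 core AAGATGGC was present in 10 members and 13.5% of their windows, against 4.12% of those of genes tested and 2.75% of all. Both shares were higher than in these wider sets of windows. The wider sets were not cleared of the members, and the differences were not tested. The ETS core CCGGAAG was present in 16 members and 21.6% of their windows, against 16.2% and 8.86%. The ESRRA core TCAAGGTCA was present in 2 members and 2.70% of their windows, against 0.261% and 0.423%. The letters of the 4 motifs do not contain each other, and 32 of the 69 members carried none of them.

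The motifs were spread unevenly over the complexes. NRF1 cores lay in 7 of 33 members of complex I, 2 of 3 of complex II, 1 of 5 of complex III, 1 of 13 of complex IV and 6 of 15 of complex V. YY1 cores lay in 7 members of complex I and 3 of complex V, and in none of the matched members of complexes II, III and IV. ETS cores lay in members of all 5 complexes, with 4, 2, 2, 3 and 5 members from complex I to complex V. The counts per complex are small and were not tested. A match describes the letters of the window and says nothing of binding. The following 30 bases are shown because they carry a core in a member whose values are described below or represent a complex or a motif. Each is written in the direction of the gene, with the core in capitals.
Ndufa11, complex I, NRF1 (chr17:56717692-56717721, plus strand): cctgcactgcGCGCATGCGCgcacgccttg
Ndufa8, complex I, NRF1 (chr2:36049349-36049378, minus strand): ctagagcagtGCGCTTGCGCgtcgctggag
Sdha, complex II, NRF1 (chr13:74350231-74350260, minus strand): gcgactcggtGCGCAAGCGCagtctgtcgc
Uqcrc1, complex III, NRF1 (chr9:108936668-108936697, plus strand): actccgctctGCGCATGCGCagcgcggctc
Cox6a1, complex IV, NRF1 (chr5:115349101-115349130, minus strand): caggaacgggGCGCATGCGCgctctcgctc
Atp5c1, complex V, NRF1 (chr2:10080430-10080459, minus strand): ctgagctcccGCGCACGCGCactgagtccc
Cox8a, complex IV, ETS (chr19:7217603-7217632, minus strand): tttccgaaataCTTCCGGctcgggcgtccg
Ndufa9, complex I, YY1 (chr6:126849097-126849126, minus strand): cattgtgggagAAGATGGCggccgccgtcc
Ndufs7, complex I, YY1 (chr10:80249462-80249491, plus strand): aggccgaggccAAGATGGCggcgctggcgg
Atp5g3, complex V, ESRRA (chr2:73911359-73911388, minus strand): tgttacaaagTGACCTTGAgcgtcttcccc
Counted from the start-site base as 0, the core began at position -60 in *Ndufa11*, -30 in *Ndufa8*, -10 in *Sdha*, -17 in *Atp5c1* and -5 in *Cox8a*. Both YY1 cores lay after the start, at position 24 in *Ndufs7* and 29 in *Ndufa9*. Of the 6 nuclear-encoded members that were barely detected, 3 had a window (*Cox7a1*, *Cox7b2* and *Cox8b*), and none of these held any of the 4 cores.

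The nuclear-encoded members were among the abundant genes of the midbrain. On the scale of normalized counts per kilobase of annotated exon, averaged over the 9 libraries, the median level of the 80 members over the minimum was 127, against 26.4 for the 13323 protein-coding genes tested. Of the 80 members, 74 lay above that median and 46 lay in the top 10% of protein-coding genes, whose lower bound was 116. The minimum was a mean normalized count of 5. Exon length is the union of all annotated transcripts, so a gene with a long, rarely used transcript has a lower level on this scale.

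Complex IV held both the highest and the lowest levels. Per kilobase, its median over the members over the minimum was 224, above 138 for complex III, 128 for complex II, 125 for complex V and 99.4 for complex I. *Cox8a*, which encodes the smallest subunit of complex IV, had the highest level of all nuclear-encoded members, at 735 ± 108 per kilobase (SD, n = 9). *Cox6a1* followed within the complex at 609 ± 97.3 and *Cox6b1* at 511 ± 102, and the values of these 3 genes overlapped between libraries. *Cox6b2*, the testis form of subunit VIb, was the lowest member of complex IV over the minimum, at 5.50 ± 3.76 per kilobase. The highest level over the lowest was 134-fold in complex IV.

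Levels within the other complexes were more even in complexes II and III than in I and V. In complex V, *Atp5a1* and *Atp5b*, which encode the alpha and beta subunits of the catalytic head, stood at 623 ± 44.5 and 560 ± 30.4 per kilobase (SD, n = 9). The lowest member by this naming was *Atp5s*, a coupling factor rather than a structural subunit, at 17.5 ± 3.58, and the range was 35.7-fold. In complex I, *Ndufa1*, a small membrane-arm subunit, and *Ndufa4*, which carries a complex I name but is now counted with complex IV, stood at 291 ± 49.6 and 288 ± 51.9, a difference far within their SD. *Ndufa4l2*, its hypoxia-induced relative, was lowest at 10.9 ± 5.46, and the range was 26.8-fold. Complex II spanned only 1.69-fold, from *Sdhc*, a membrane anchor, at 84.4 ± 9.66 to *Sdha*, the flavoprotein, at 142 ± 7.51. Complex III spanned 2.29-fold, from *Uqcrb* at 94.5 ± 28.6 to *Uqcr10* at 216 ± 47.9, which are both small subunits without redox centres.

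**Figure D1:**
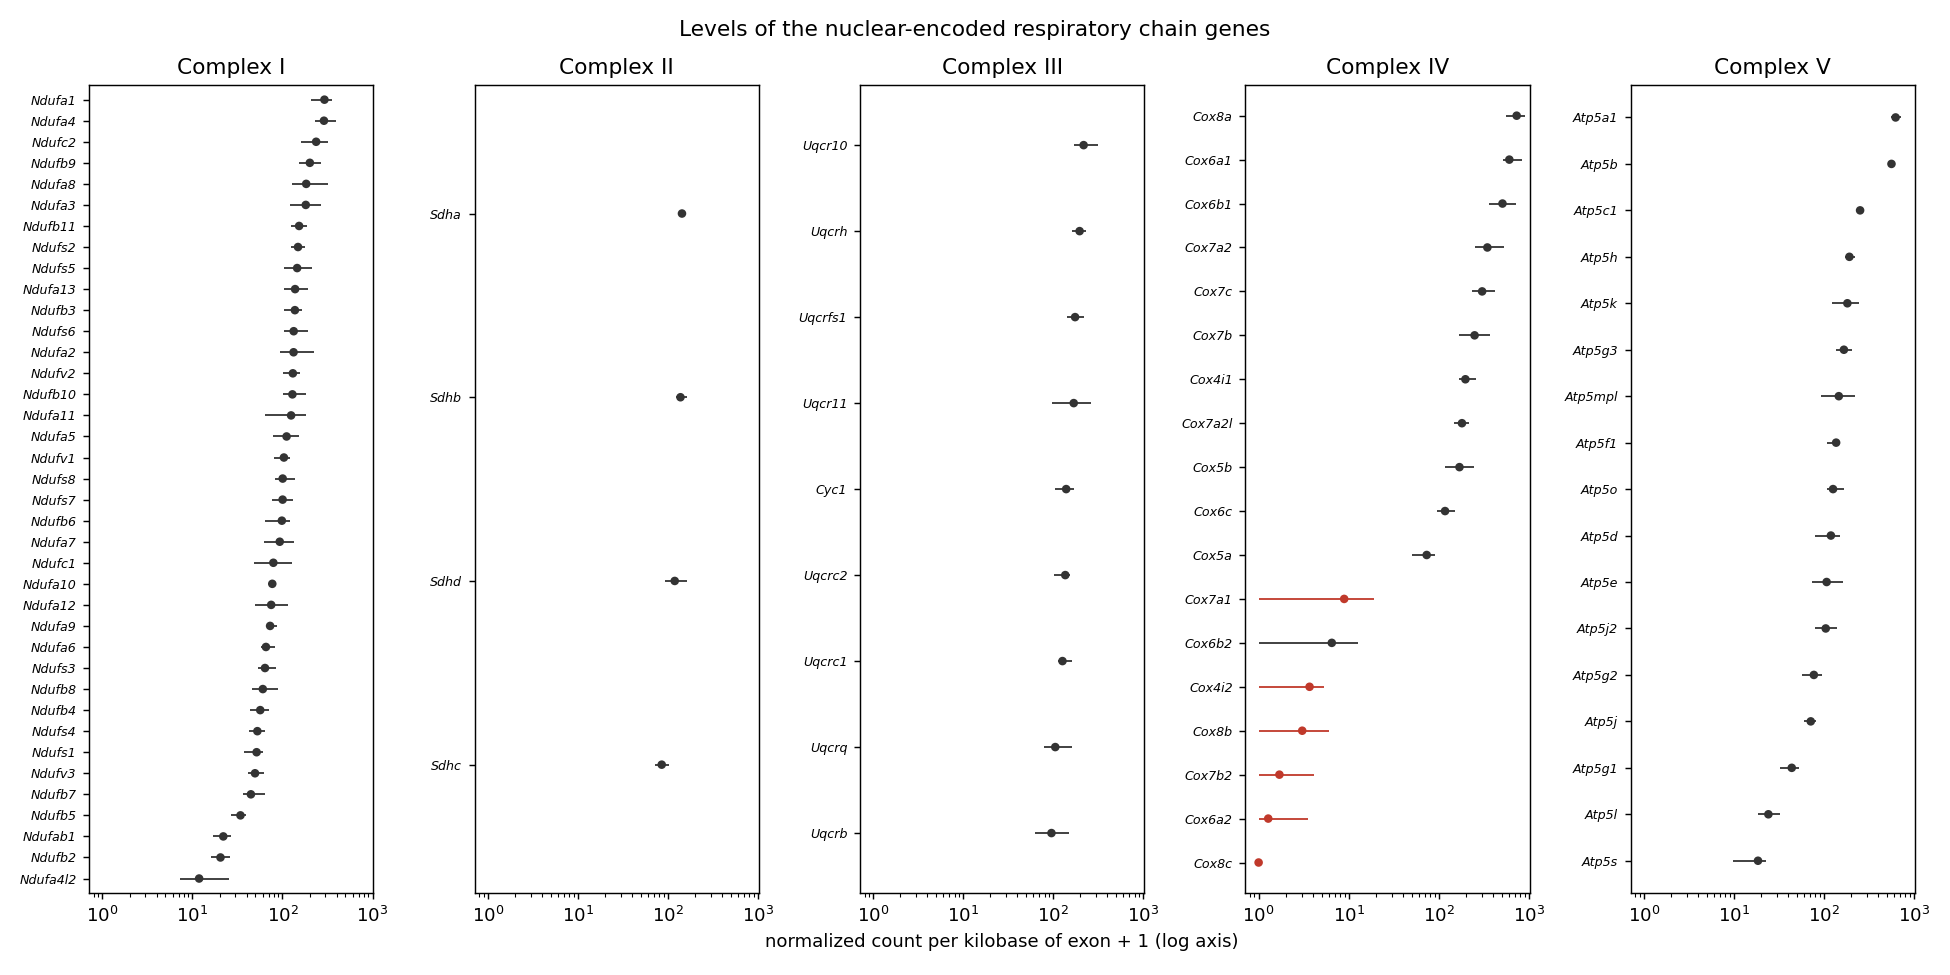
Level of each of the 86 nuclear-encoded members, in normalized counts per kilobase of exon with 1 added so that 0 can be drawn on the log axis. Points are means over the 9 libraries, lines run from the lowest to the highest library, and red marks the 6 members under the minimum, all of which belong to complex IV.

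The 6 nuclear-encoded members under the minimum were *Cox4i2*, *Cox6a2*, *Cox7a1*, *Cox7b2*, *Cox8b* and *Cox8c*, all alternative isoforms of complex IV subunits. *Cox8c*, a testis isoform, had 0 of 41253425 reads on genes in the 9 libraries, and a count of 0 allows up to 3 reads by counting error alone. *Cox6a2* and *Cox8b*, the heart and skeletal muscle forms of subunits VIa and VIII, had 2 reads in 1 library and 7 reads in 5 libraries. *Cox7b2* had 4 reads in 2 libraries. Their common counterparts *Cox6a1*, *Cox8a* and *Cox7b* had 4054, 4308 and 2830 reads and were found in every library.

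The other isoform sets were also led by the common form, with a minor form that had reads. Per kilobase, *Cox4i1* made up 97.5% to 100% of its pair in the single libraries, and *Cox4i2*, the form known from lung and from low oxygen, had 22 reads in 7 libraries. *Cox6b1* made up 98.0% to 100% of its pair, and *Cox6b2* had 54 reads in 8 libraries. Of the subunit VIIa set, *Cox7a2* made up 56.6% to 71.0%, *Cox7a2l*, which encodes a factor of supercomplex assembly, 28.8% to 41.3%, and the muscle form *Cox7a1* 0 to 3.05% with 40 reads. *Ndufa4l2* made up 2.15% to 7.54% of the pair with *Ndufa4*, with 118 reads in all 9 libraries. Its highest value was 26.5 normalized counts in +/+ library 9, and the other 8 libraries ranged from 6.83 to 13.7.

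Subunit c of complex V, which forms the rotating ring, is encoded by 3 genes for a single mature protein. All of them were found in every library, in the same order. *Atp5g3* made up 55.1% to 62.2% of the set per kilobase, *Atp5g2* 23.2% to 31.1% and *Atp5g1* 13.9% to 16.2%. The shares did not overlap between the 3 genes in the 9 libraries. On the scale of reads, which is not corrected for length, *Atp5g1* stood above *Atp5g2*, with 2026 against 1224 reads.

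The members differed in how far they varied between libraries. The coefficient of variation of the normalized counts over the 9 libraries was lowest for *Ndufa10* at 4.43%, *Atp5c1* at 5.19%, *Sdha* at 5.27% and *Atp5b* at 5.42%. It was highest for *Cox6b2* at 68.4% and *Ndufa4l2* at 50.3%, which rest on 0 to 13 and 5 to 36 reads per library, and for *Uqcr11* at 37.0%, with 60 to 227 reads. *Ndufa10*, *Atp5b* and *Uqcr11* are named here because of these values. By complex the median was 10.5% for complex II, 15.5% for complex III, 16.6% for complex V, 17.9% for complex I and 20.3% for complex IV.

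Much of this variation was shared by the members and ran across the genotypes. The summed normalized count of complex I was 6678, 5722 and 5604 in the LacZ/LacZ libraries, 7277, 5906 and 6083 in the LacZ/+ libraries, and 7417, 5643 and 6536 in the +/+ libraries. That of complex IV was 3789, 3144 and 2966, then 4560, 3438 and 3625, then 4590.3, 3129 and 3533. In both complexes libraries 7 and 4 were highest, library 1 was highest of its genotype, and libraries 2, 3 and 8 were the lowest. Complex V followed with 8594, 7579 and 7152, then 8758, 7886 and 8024, then 8764, 7481 and 8037. Complex III gave 2254, 1968 and 1841, then 2407, 2042 and 2015, then 2382, 1977 and 2437, with library 9 highest. Complex II varied least, with 1339, 1279.6 and 1256, then 1450.4, 1253 and 1375, then 1409, 1227 and 1237. The values of the 3 genotypes overlapped in every complex.

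**Figure D2:**
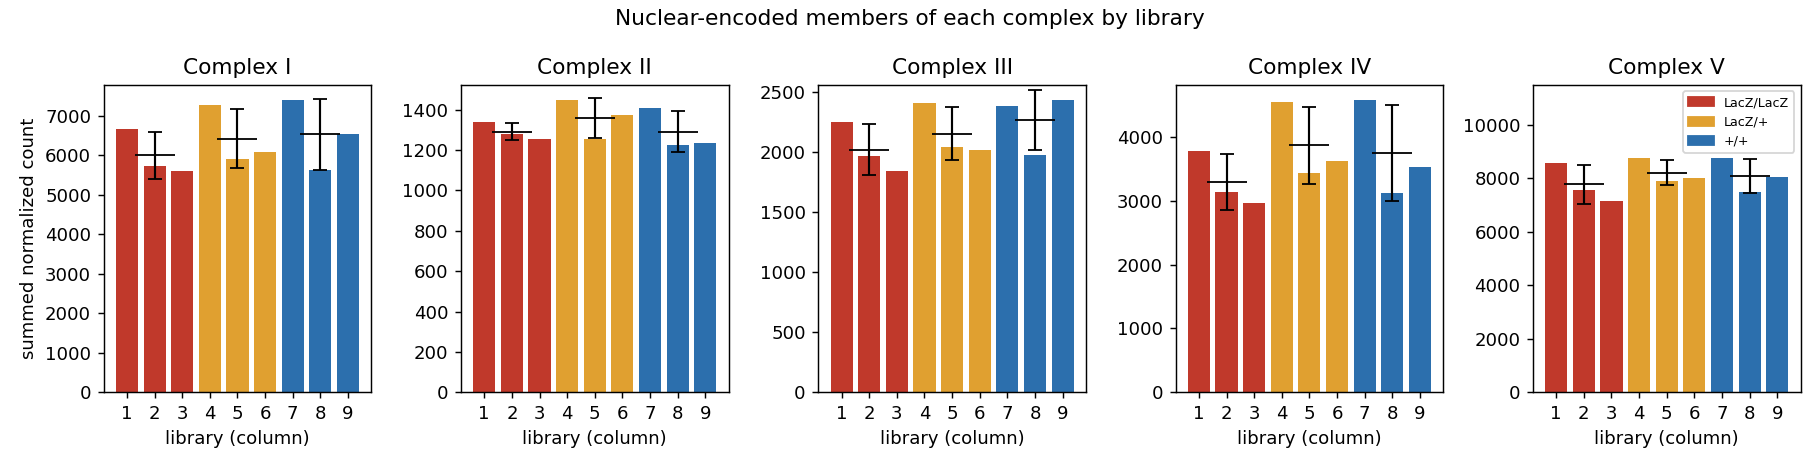
Summed normalized count of the nuclear-encoded members of each complex in each library (bars, numbered by column, coloured by the labelled genotype), with the mean and SD of each genotype (line and error bar, n = 3), each panel with its own axis from 0. Libraries 4 and 7 are the highest of their genotype in all 5 complexes except complex III, where library 9 reaches 2437 against 2382 in library 7.

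The nuclear-encoded members together made up 0.535%, 0.476% and 0.445% of all normalized counts in the LacZ/LacZ libraries, 0.581%, 0.489% and 0.494% in the LacZ/+ libraries, and 0.561%, 0.467% and 0.509% in the +/+ libraries. Of the 80 members tested, 28 had their highest value in library 4, 28 in library 7, 10 in library 1 and 8 in library 9, and none in library 3 or library 8. Lowest values were most frequent in library 3, with 21 members, and in library 8, with 18. The median log2 deviation of the members from their own means was 0.28 in library 7 and 0.22 in library 4, against -0.18 in library 3 and -0.15 in libraries 2 and 8. Its SD between libraries of the same genotype, pooled over the 3 genotypes, was 0.178.

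The deviation was larger in members with short exons. Among the 32 members with over 1000 and up to 2000 bp of exon the median log2 deviation in library 7 was 0.36, and among the 11 members with more than 4000 bp it was 0.06. In library 3 the corresponding values were -0.26 and -0.08. Other protein-coding genes followed the same course: with up to 1000 bp of exon the median in library 7 was 0.31 for 217 other genes and 0.30 for 17 members, and over 4000 bp it was -0.02 for 7972 other genes. In the class of over 1000 and up to 2000 bp the members lay further out than the 1163 others, at 0.36 against 0.10 in library 7 and -0.26 against -0.09 in library 3. Cytosolic ribosomal proteins, which are also mostly short genes, had a median log2 deviation of 0.25 in library 7, 0.22 in library 4 and -0.24 in library 3 over the 82 tested.

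**Figure D3:**
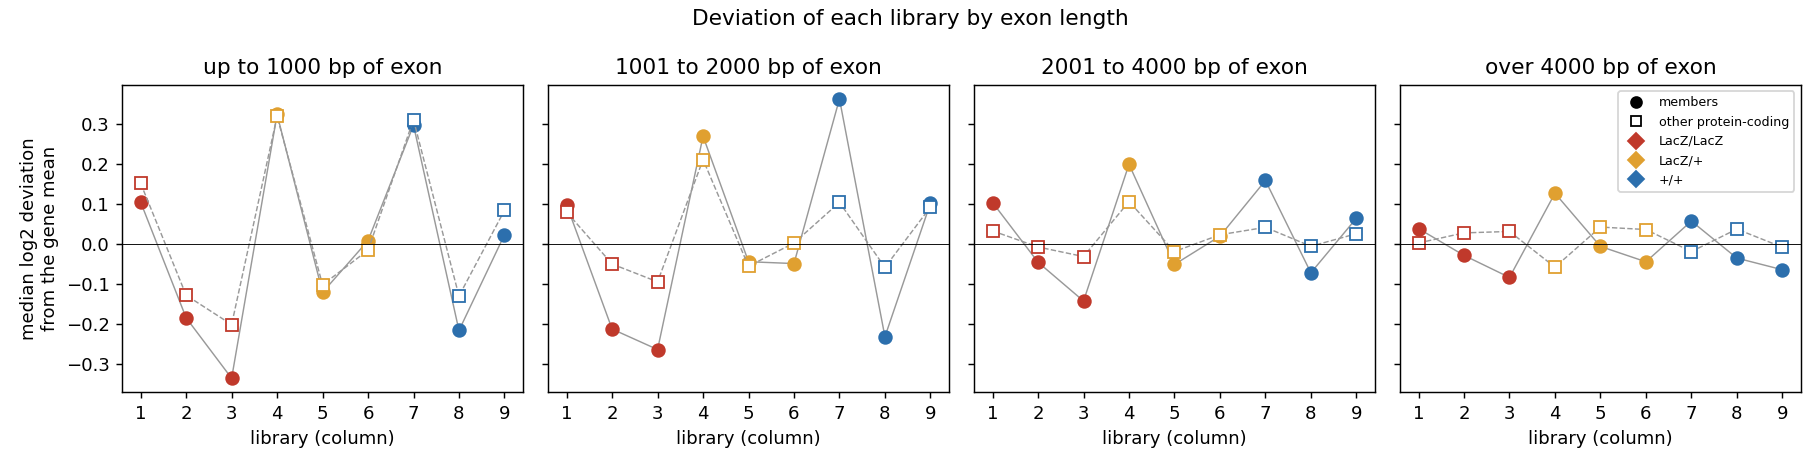
Median log2 deviation of each library from the gene means, for the nuclear-encoded members (filled circles, 17, 32, 20 and 11 genes from left to right) and the other protein-coding genes tested (open squares, 217, 1163, 3891 and 7972 genes), in 4 classes of exon length. Both sets are highest in libraries 4 and 7 in the shortest class, at 0.32 and about 0.30, and the spread between libraries narrows as exons lengthen.

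Markers of other cells were summed in the same way. Progenitor markers (8 genes) summed to between 2617 in library 3 and 3421 in library 7, with 3400 in library 1 and 2932 in library 4. Endothelial markers (5 genes) summed to between 471 in library 9 and 575 in library 2. Pericyte markers (6 genes) summed to between 613 in library 7 and 779 in library 2. The 8 blood markers, of which 7 were over the minimum, summed to 1880.2, 1541 and 1536 normalized counts in the LacZ/LacZ libraries, 2249, 1593 and 1818 in the LacZ/+ libraries, and 2159, 1478 and 1643 in the +/+ libraries. Libraries 4, 7 and 1 were again the highest. The sum of the 8 neuronal markers was lowest in libraries 4 and 7, at 26403 and 28853 against 30636 to 33093 in the other 7, but *Tubb3*, a neuronal tubulin among them, was highest in library 4 at 6811, and stood at 5948 in library 7 and 5048 to 6117 in the others. The 8 markers of striated muscle summed to between 60.2 and 149, and *Myog*, which defines differentiating muscle, was at 0 in 7 of the 9 libraries. Library 4 also stood apart in the markers of dopaminergic neurons, and library 7 in those of choroid plexus, as given above. The part of depth, exon length and these cell types in the course of the respiratory genes was not tested. In tissue RNA, fewer cells of a type and less RNA per cell cannot be told apart.

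The first comparison asked whether the loss of both *Nkx2.9* alleles goes with a change in respiratory genes. Only 2 of the 80 nuclear-encoded members differed between the LacZ/LacZ and +/+ libraries in limma at an unadjusted p under 0.05, *Ndufa11* and *Atp5d*, and both were lower. The share of all 16993 genes tested that passed the same threshold was 2.6% in either direction, 1.22% lower and 1.38% higher, so 2 of 80 members is close to the background. No member passed after Benjamini-Hochberg adjustment over all genes in limma, as for all genes (0.0%), and edgeR and DESeq2 gave the same counts of 2 and 0, beside 421 and 316 of all genes at an unadjusted p under 0.05. Values did not overlap and were lower in LacZ/LacZ for 2 of the 80 members, *Ndufa11* and *Atp5c1*, against 4.43% of all genes, and no member was higher without overlap, against 5.08%. The count at an unadjusted p under 0.05 depended on single libraries. It was 10 without library 8, where 827 of all genes passed, 9 without library 1 (454 of all genes) and 5 without library 4 (767), and it was 1 without library 2, 3 or 7 (283, 291 and 321). *Atp5c1* and the members named below for not overlapping were singled out after their values were seen.

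*Ndufa11*, which encodes an accessory subunit in the membrane arm of complex I, had the largest of these differences. Its gene lies on chromosome 17 (chr17:56717767-56722141 in GRCm38, plus strand, 3 exon blocks and 1092 bp of exon), and its exons overlap those of *Vmac* on the opposite strand. Its normalized counts were 109.9, 68.6 and 106 in the LacZ/LacZ libraries, 183, 121 and 153 in the LacZ/+ libraries, and 197, 112 and 165 in the +/+ libraries. All 3 values labelled LacZ/LacZ lay below all 6 others, a direction that rests on the doubtful labels, though library 1 came within 3 counts of library 8. The means were 94.7 ± 22.7 and 158 ± 42.6 (SD, n = 3 each), and the log2 fold change of LacZ/LacZ over +/+ was -0.72 ± 0.23 (SE) with a 95% confidence interval of -1.22 to -0.23. Its unadjusted limma p was 0.00695, its adjusted p 1.00, and the exact permutation p was 0.1, the smallest that 3 against 3 libraries can give. Without library 2 the fold change was -0.51, with an unadjusted limma p of 0.0535.

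*Atp5d* encodes the delta subunit of the central stalk of ATP synthase (chr10:80138632-80145818, plus strand, with exons that overlap those of *Cbarp* on the opposite strand). Its normalized counts were 218, 204 and 153 in the LacZ/LacZ libraries, 253, 231 and 233 in the LacZ/+ libraries, and 289.6, 218 and 252 in the +/+ libraries. LacZ/LacZ library 1 and +/+ library 8 had nearly the same value, so the 2 genotypes overlapped. The log2 fold change of LacZ/LacZ over +/+ was -0.41 ± 0.16 (SE), with an unadjusted limma p of 0.0221, an adjusted p of 1.00 and an exact permutation p of 0.2. It was -0.25 without library 3 and -0.31 without library 7, with unadjusted limma p of 0.148 and 0.0971. *Atp5c1*, the gamma subunit of the same stalk, did not overlap between the genotypes at 474 ± 15.8 and 501 ± 9.41 (SD, n = 3 each), but the difference was small, at -0.08 on the log2 scale with an unadjusted limma p of 0.475.

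**Figure D4:**
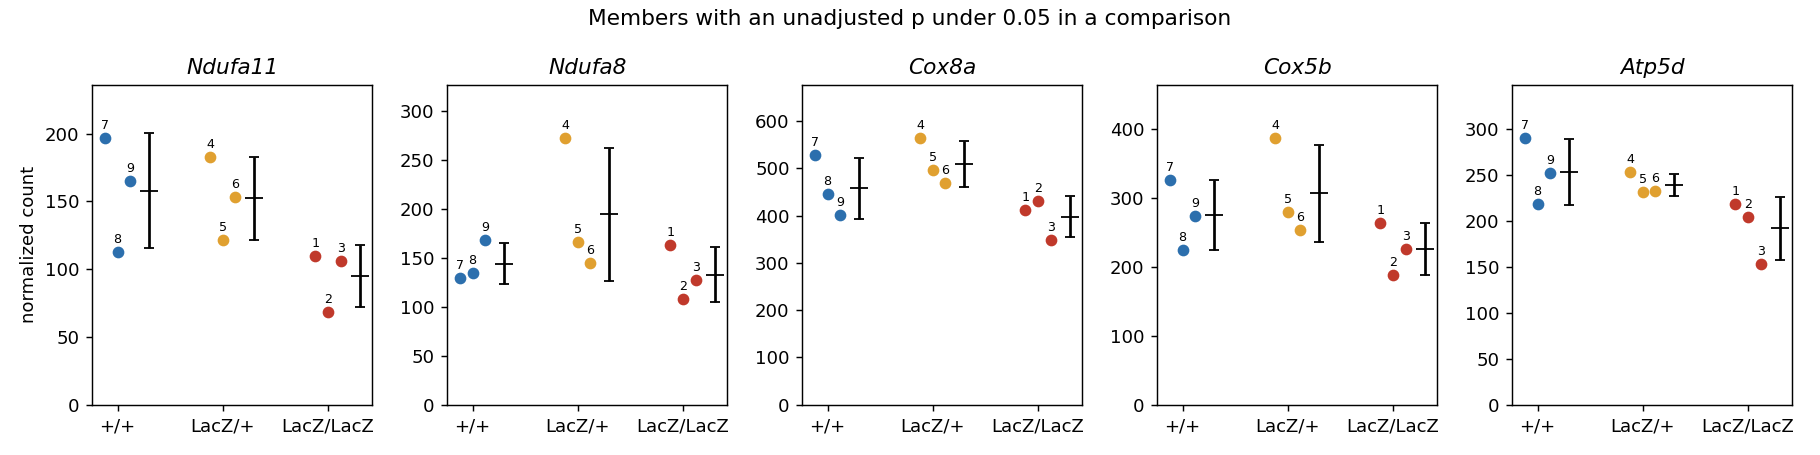
Normalized counts of the 5 members with an unadjusted p under 0.05 in any comparison, by labelled genotype. Each point is a library with its column number, and the line and bars beside the points are the mean and SD (n = 3). The LacZ/LacZ points of *Ndufa11* lie between 68.6 and 109.9, below all 6 other libraries, while those of *Ndufa8* and *Cox5b* overlap the LacZ/+ points.

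The members as a whole leaned slightly towards lower values in the libraries labelled LacZ/LacZ, a direction that would turn if the LacZ/LacZ and +/+ labels were exchanged. The median log2 fold change of the 80 members over +/+ was -0.12, against 0.01 for all genes tested, and 62 members were below 0, or 77.5%, where 47.7% of all genes were. By complex the medians were -0.13 for I, -0.02 for II, -0.21 for III, -0.16 for IV and -0.08 for V, and all 12 members of complex IV over the minimum were below 0. Of these *Cox6b2*, which rests on 0 to 13 reads per library, was at -0.16 ± 0.90 (SE), although its mean normalized count was higher in LacZ/LacZ, at 6.12 against 5.02. These medians were not tested. Without +/+ library 7 the median of the 80 members was -0.0031, and without LacZ/LacZ library 1 it was -0.23. The median without library 2 was -0.08, that without library 3 was -0.07, and that without library 8 was -0.21.

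Other short genes also had medians below 0 in this comparison, closer to 0 than the members in the class that holds the most members. Among members with up to 1000 bp of exon the median log2 fold change of LacZ/LacZ over +/+ was -0.16, and among the other protein-coding genes of that class it was -0.15. In the next class, of over 1000 and up to 2000 bp, it was -0.16 for members and -0.07 for others, with 90.6% and 60.1% of genes below 0. Over 4000 bp it was 0.04 for members and 0.02 for others. Cytosolic ribosomal proteins had a median of -0.10, with 66 of 82 below 0. When a trend on exon length was removed from each library, an alternative added after seeing the data, the median of the members was -0.08 and limma gave 3 members with an unadjusted p under 0.05, beside 462 of all 16993 genes.

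The heterozygous libraries did not stand apart from the +/+ libraries. By limma, edgeR or DESeq2, none of the 80 members passed the unadjusted threshold of 0.05, and none passed after adjustment. Over all genes the limma shares were 2.78% without adjustment (1.48% lower and 1.31% higher) and 0.0% with it. In edgeR and DESeq2, 372 and 264 of all genes passed without adjustment, and 1 passed with it in DESeq2. The median log2 fold change of LacZ/+ over +/+ was -0.03, against -0.01 for all genes, and 45 of 80 members were below 0, where 51.4% of all genes were. Complex III had the lowest median, at -0.15, and complex IV the highest, at 0.10. The median of the 80 members was 0.08 without +/+ library 7, -0.12 without +/+ library 8 and -0.10 without LacZ/+ library 4, and it also turned positive without library 5, at 0.04, or library 6, at 0.03. *Ndufa9*, a peripheral-arm subunit of complex I, and *Atp5c1* were lower without overlap, 2 of 80 members against 3.51% of all genes. *Ndufa9* had 141 ± 4.12 normalized counts in LacZ/+ and 163 ± 18.2 in +/+ (SD, n = 3 each). Its log2 fold change was -0.20, with an unadjusted limma p of 0.184. No member was higher without overlap, against 3.4% of all genes.

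LacZ/LacZ libraries were also compared with LacZ/+ libraries, and this comparison shares the LacZ/LacZ libraries with the first. Of the 80 members, limma gave 4 with an unadjusted p under 0.05, *Ndufa11*, *Cox8a*, *Cox5b* and *Ndufa8*, all lower in LacZ/LacZ, against 2.64% of all genes in either direction, 1.15% lower and 1.49% higher. None passed after adjustment, as for all genes (0.0%), and edgeR and DESeq2 also gave 4 and 0, beside 451 and 323 of all genes at an unadjusted p under 0.05. Values did not overlap and were lower for 4 members, *Ndufa11*, *Ndufb4*, *Cox8a* and *Atp5d*, against 4.09% of all genes, and were higher for *Ndufb5* alone, against 4.62%. The count of 4 became 9 without library 1 (376 of all genes), 2 without library 4 (493) and 1 without library 2 or 3 (293 and 296). *Ndufb4* had 92.7 ± 7.31 and 118 ± 13.4 normalized counts in LacZ/LacZ and LacZ/+, and *Ndufb5* 177 ± 11.6 and 157 ± 8.31 (SD, n = 3 each), and both encode membrane-arm subunits of complex I. Their unadjusted limma p was 0.104 and 0.311.

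*Ndufa11* was 0.69 lower on the log2 scale, at -0.69 ± 0.23 (SE), with a mean of 152 ± 30.7 (SD, n = 3) in LacZ/+, an unadjusted limma p of 0.00934, an adjusted p of 0.999 and an exact permutation p of 0.1. Without library 2 the fold change was -0.48 with an unadjusted limma p of 0.0688. *Cox8a* (chr19:7215153-7217616, minus strand) had 412, 432 and 349 normalized counts in LacZ/LacZ, 564, 496 and 468 in LacZ/+ and 528, 445 and 400.4 in +/+. The LacZ/LacZ values lay below the LacZ/+ values without overlap, and the +/+ values overlapped both. Its log2 fold change of LacZ/LacZ over LacZ/+ was -0.36 ± 0.14 (SE), with means of 397 ± 43.3 and 509 ± 49.2 (SD, n = 3 each), an unadjusted limma p of 0.0197 and an exact permutation p of 0.1. Without library 3 it was -0.27 with an unadjusted limma p of 0.106.

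*Cox5b*, a matrix-side subunit of complex IV (chr1:36691449-36693681, plus strand), had 263, 188 and 226 normalized counts in LacZ/LacZ, 386, 279 and 253 in LacZ/+ and 326, 225 and 274 in +/+. *Ndufa8*, an accessory subunit of complex I (chr2:36036326-36049406, minus strand), had 163, 108 and 127, then 272, 167 and 144, then 129, 135 and 168. In both genes the LacZ/LacZ and LacZ/+ values overlapped, and the highest value of all was that of library 4. The log2 fold changes of LacZ/LacZ over LacZ/+ were -0.43 ± 0.18 (SE) and -0.51 ± 0.22, with unadjusted limma p of 0.0339 and 0.0352, adjusted p of 0.999 and exact permutation p of 0.2. Without library 4 they were -0.25 and -0.24, with limma p of 0.151 and 0.208. Without library 2 they were -0.30 and -0.37, with limma p of 0.161 and 0.155, and without library 3 they were -0.44 and -0.49, about as large as before, with limma p of 0.0647 and 0.0810.

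Across the members the median log2 fold change of LacZ/LacZ over LacZ/+ was -0.10, against 0.02 for all genes, with 60 of 80 members below 0, where 46.9% of all genes were. Complex IV was lowest, with a median of -0.23 and all 12 members below 0, and complex II was nearest to 0, at -0.04. Library 4 was the highest LacZ/+ library in every complex. Without it the median of the 80 members was -0.02. Without library 1 it was -0.23, without library 2 it was -0.08, without library 3 -0.04, and without library 5 or 6 it was -0.17.

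**Figure D5:**
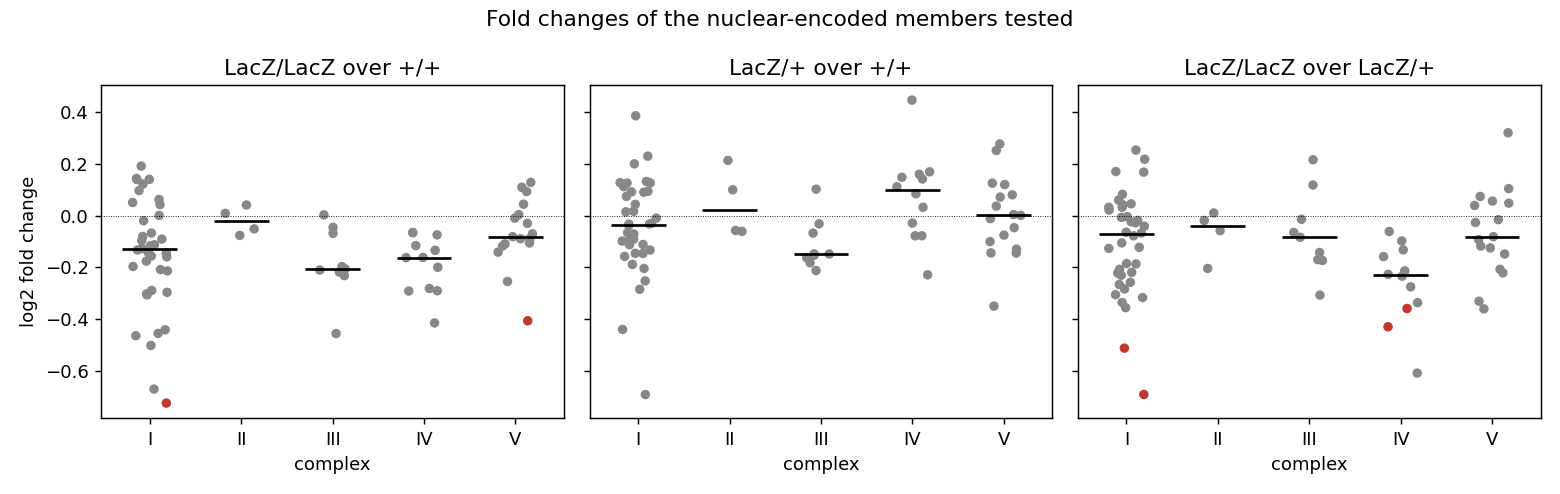
Log2 fold change of each of the 80 nuclear-encoded members tested, by complex, in the 3 comparisons. Each point is a gene, lines are medians and red marks an unadjusted limma p under 0.05 (2, 0 and 4 members). All 12 points of complex IV lie below 0 in both comparisons of LacZ/LacZ, which share the same 3 LacZ/LacZ libraries.

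Other genes of mitochondrial energy metabolism were counted in lists of the same kind. Of 49 assembly factors of the respiratory complexes, 47 were tested, and their median log2 fold change of LacZ/LacZ over +/+ was 0.03, with 1 gene higher and none lower at an unadjusted limma p under 0.05, against 1.38% and 1.22% of all genes. That gene was *Ndufaf7*, a methyltransferase for complex I assembly, at 0.52 with an unadjusted limma p of 0.0197. Of 78 proteins of the mitochondrial ribosome, which makes the 13 mitochondrial-encoded subunits, 77 were tested, with a median of -0.06, 4 genes lower and none higher, against the same background of 1.22% and 1.38%. They included *Mrpl57* at -0.57 and *Mrps34* at -1.09, with unadjusted limma p of 0.0135 and 0.0177. None of 28 tested genes for the expression and upkeep of mitochondrial DNA, of 12 regulators of nuclear respiratory genes, of 19 glycolytic genes and of 16 genes of the citric acid cycle passed in this comparison. Their medians were -0.01, 0.07, -0.06 and 0.03.

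In the comparison of LacZ/+ with +/+ the assembly factors had 2 of 47 genes higher and 1 lower, against 1.31% and 1.48% of all genes, among them the copper chaperone *Cox17* of complex IV at 0.80 and the complex II factor *Sdhaf4* at -0.85, with unadjusted limma p of 0.0128 and 0.0315. Of the genes of mitochondrial DNA upkeep 1 of 28 was lower and none higher, the mitochondrial RNA polymerase gene *Polrmt* at -0.37, and of the mitochondrial ribosome 1 of 77 was lower and none higher, *Mrps34* at -0.97, with unadjusted limma p of 0.0442 and 0.0311. Between LacZ/LacZ and LacZ/+ the assembly factors had 1 of 47 genes higher and none lower, the genes of mitochondrial DNA upkeep 1 of 28 higher and none lower, and the mitochondrial ribosome 1 of 77 higher and 2 lower, against 1.49% and 1.15% of all genes. Those higher were *Ndufaf1*, a factor of complex I assembly, at 0.53, *Mterf3*, a factor of mitochondrial transcription and ribosome assembly, at 0.57, and *Mrps17* at 0.40, with unadjusted limma p of 0.0464, 0.00879 and 0.0422. Those lower were *Mrpl57* at -0.82 and *Mrpl11* at -0.38, with unadjusted limma p of 0.00114 and 0.0359. No gene of these lists passed after Benjamini-Hochberg adjustment over all genes. In libraries 4 and 7, where the respiratory subunits were high, the median log2 deviation was -0.02 and 0.04 for the assembly factors, -0.19 and 0.05 for the genes of mitochondrial DNA upkeep, and 0.0008 and 0.03 for the citric acid cycle. It was 0.28 and 0.08 for the glycolytic genes and 0.07 and 0.18 for the mitochondrial ribosome.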

How the data were processed

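Per the labels and the methods, the authors extracted total RNA from dissected midbrains, depleted ribosomal RNA, sequenced 100-bp paired ends, aligned them to GRCm38/mm10 (Hisat2) and counted reads per gene (featureCounts). The labels name a trizol extraction and an mRNA library protocol, the methods a column kit and rRNA depletion. Tool versions, annotation release and strand setting are not given in the sources used here. The authors deposited a signal per gene and library, a normalized count made by dividing read counts by DESeq2 size factors. They also deposited 3 tables of DESeq2 comparisons (mean, log2 fold change, error, statistic and p-values), which were not used.

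Whole reads were recovered for 100% of 210686 values above 0 (tolerance 0.001). The share of reads on entries that name no gene was not measured. Of 51912 genes, 51719 matched the GENCODE annotation of GRCm38 used for names, positions and exon lengths. Each column was put in the group of the genotype in its name. The main test was limma 3.58.1 in R 4.3.3 (lmFit and eBayes with trend, two-sided) on log2(normalized count + 1), fitted over all 9 libraries. P-values were adjusted by Benjamini-Hochberg across the 16993 genes whose mean normalized count reached 5. Fold changes are on that scale, which understates the changes of low genes. An exact two-sided permutation test of 3 against 3 was run for single genes. Nothing in the labels says more of how libraries differ than that each pools 2 midbrains, so p-values measure the spread between such pools. Confidence intervals are at 95%. Alternatives used other pseudocounts, minimums, scalings and libraries, and edgeR 4.0.16 and DESeq2 1.42.0 on the recovered reads. The tests were checked on simulated reads. Copies were aligned with edlib 1.3.9.post1. Python 3.11.15 and matplotlib 3.10.9 made the figures.

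Members are named if they are mitochondrial-encoded, the most or least abundant of a complex per kilobase, called at an unadjusted p under 0.05 (at most 6 per comparison), in an isoform set or under the minimum. Context lists name at most 3 called genes each. Members and lists were chosen with earlier results of these data known.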

Additional observations from a re-analysis of the deposited data

How the results depend on the processing

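The count of members with an adjusted p under 0.05 was 0 in all 3 comparisons under each of 21 alternatives. The median log2 fold changes of the members changed most when single libraries were left out, from -0.23 to -0.0031 for LacZ/LacZ over +/+, -0.12 to 0.08 for LacZ/+ over +/+, where the sign turned without library 5, 6 or 7, and -0.23 to -0.02 for LacZ/LacZ over LacZ/+. The count of members with an unadjusted p under 0.05 was less stable. For LacZ/LacZ over +/+ it was 2, and it was 4 with no minimum (1135 of all 31636 genes), 5 with libraries of the 2 genotypes only (643 of 16993) and 6 without libraries 4 and 7 together (703, of which 6 passed adjustment, none of them members), an alternative added after seeing the data. Leaving out single libraries gave 1 to 10, with 1 without library 2, 3 or 7, 5 without library 4, 9 without library 1 and 10 without library 8. For LacZ/+ over +/+ it was 0, with 1 without libraries 4 and 7 together (852 of all genes) and 0 to 2 when single libraries were left out, namely 1 without library 6 (596) and 2 without library 7 or 8 (445 and 651). For LacZ/LacZ over LacZ/+ it was 4, with 1 in limma without a trend (618 of all genes) and 1 to 9 when single libraries were left out, the extremes being 1 without library 2 or 3 and 9 without library 1. The differences called for *Ndufa11*, *Atp5d*, *Cox8a*, *Cox5b* and *Ndufa8* kept their direction under all 21 alternatives. *Cox5b*, *Cox8a* and *Ndufa8* lost their unadjusted call without a trend, which leaves the fold changes as they were, and *Cox5b* and *Ndufa8* lost it without libraries 4 and 7 together. Median fold changes of the mitochondrial-encoded genes could not be computed because they are listed at 0. No paired analysis was possible because the columns carry no replicate numbers. Libraries 7 and 4 have the fewest reads, and the part of depth in these changes was not tested.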
